A study of Mus musculus with 10 samples.

Results

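The 10 mouse genes described here are 4 adenylyl cyclases, Adcy3, Adcy6, Adcy7 and Adcy9, and 6 cAMP phosphodiesterases, Pde3b, Pde4a, Pde4b, Pde4d, Pde7a and Pde8a, out of 47311 genes summed from the deposited transcript tables. They were picked by symbol, knowing that Adcy6 was higher in these data with every ASXL2 construct, so their differences from the empty vector are given as a description. The calls in those comparisons are counted once, beside the share of all genes called, and nothing is read from them. The cells came from mouse bone marrow, were lineage-negative and Kit-positive, carried a vector, and were sorted for GFP and expanded in IMDM with 15% serum, IL3, IL6 and SCF before polyA RNA was sequenced. The groups were mutant 1, mutant 2 and mutant 3 of ASXL2, full-length ASXL2 and the empty vector, with 2 libraries each and 10 in all. The genotype labels call the 4 ASXL2 groups over-expression of Asxl2, a chromatin regulator that binds the deubiquitinase BAP1. The labels do not give the residues that the mutants change, the age of the animals, or whether separate cultures lie behind both libraries of each construct. The spread behind each p-value is therefore that of these libraries and may be technical. In bulk RNA fewer cells of a type and less RNA per cell cannot be told apart.

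Cyclic AMP is made from ATP by adenylyl cyclases, membrane enzymes that the stimulatory G protein alpha subunit switches on and the inhibitory alpha subunits restrain. It activates protein kinase A, which phosphorylates CREB among many targets, and it is broken down by phosphodiesterases whose isoforms differ in their affinity for cAMP and in where they sit in the cell. In mast cells and myeloid cells, receptors for prostaglandin E2 and adenosine act through this system, and a raised cAMP level is known to damp degranulation.

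Each library held between 52422686 and 79320702 estimated counts. Asxl2 averaged 1201 ± 430 CPM (counts scaled to library size by TMM) in the 6 mutant libraries, 1188 ± 277 CPM in the full-length libraries and 109 ± 2.48 CPM in the empty-vector libraries (SD over 6, 2 and 2 libraries). The names of the deposited tables disagree with the labels for 4 mutant libraries, which carry another mutant number. The name gives number 2 for mutant 1 replicate 2 and for mutant 3 replicate 1. It gives number 3 for mutant 2 replicate 1 and number 1 for mutant 2 replicate 2. For 2 of these, mutant 1 replicate 2 and mutant 3 replicate 1, the name also gives another batch than the label. Groups follow the labels, and the batch of the name is set beside the batch of the label. By either one, each batch holds 5 libraries, 3 mutant, 1 full-length and 1 empty-vector. Mast cell and basophil markers summed to between 54181 and 59417 TPM (a length-scaled share of transcripts) in mutant libraries, 53894 and 66836 TPM in full-length libraries and 58938 and 61918 TPM in empty-vector libraries, with 11 of 13 markers at 10 TPM or more. Neutrophil markers reached 8.89 TPM and lymphoid markers 2.55 TPM in sum at most, and the neutrophil marker Retnlg was at 0 throughout.

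The following stretches of promoter are shown because these genes carry the results below: Pde8a had the largest ratio of highest to lowest CPM among the 6 phosphodiesterases, and Pde4a and Adcy7 moved with the batch of the name. Each is the 250 bases before a RefSeq start site on GRCm38.p6, read on the plus strand from 5′ to 3′. They lie at chr7:81213015-81213264 for Pde8a, at chr9:21165464-21165713 for Pde4a and at chr8:88293954-88294203 for Adcy7. The nearest annotated transcripts are Pde8a-201, which starts 331 bases from the RefSeq start, Pde4a-202, which starts at it, and Adcy7-201, which starts 31 bases from it.
Pde8a: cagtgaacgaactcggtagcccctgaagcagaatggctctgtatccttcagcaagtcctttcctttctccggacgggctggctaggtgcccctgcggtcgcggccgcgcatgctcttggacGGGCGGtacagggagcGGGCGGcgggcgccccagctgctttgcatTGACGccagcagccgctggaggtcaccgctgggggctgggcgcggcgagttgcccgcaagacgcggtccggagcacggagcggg
Pde4a: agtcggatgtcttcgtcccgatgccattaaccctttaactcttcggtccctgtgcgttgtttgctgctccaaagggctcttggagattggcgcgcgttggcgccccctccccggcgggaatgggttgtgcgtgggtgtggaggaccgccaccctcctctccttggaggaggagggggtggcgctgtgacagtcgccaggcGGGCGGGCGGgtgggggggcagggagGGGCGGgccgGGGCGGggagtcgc
Adcy7: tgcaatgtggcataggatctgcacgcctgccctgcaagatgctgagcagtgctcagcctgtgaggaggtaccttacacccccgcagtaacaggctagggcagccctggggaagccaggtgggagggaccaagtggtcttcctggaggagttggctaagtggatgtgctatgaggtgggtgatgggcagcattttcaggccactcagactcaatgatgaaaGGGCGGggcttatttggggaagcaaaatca
Capitals mark the GC box GGGCGG, which the Sp and Klf families bind, and TGACG, the half-site of the cAMP response element TGACGTCA, which CREB binds. Both strands were searched, a half-site lies within every full element, and neighbouring GC boxes can share bases, as the first pair in the Pde4a stretch does. The Pde8a stretch held 2 GC boxes, which start 129 and 113 bases before the start site, and 1 half-site, which starts 84 bases before it. The Pde4a stretch held 4 GC boxes and the Adcy7 stretch 1, and neither held a half-site. These genes have other RefSeq start sites, and the stretches nearest Pde4a-205 and Adcy7-202 each held a half-site. So did a stretch of Pde4b and that of Adcy9. Across 32851 RefSeq promoters cut to the same length, 32.7% held a GC box, 17.8% a half-site and 1.55% the full element. Searches for the E-box CANNTG and the GATA motif GATAA gave 1 E-box in the Pde8a stretch, 2 in the Adcy7 stretch and 0 in the Pde4a stretch, with no GATA motif in the 3, beside 66.2% and 22.6% of all promoters. The full element was in none of the 15 stretches that matched 7 of the 10 genes. The GC content was 68.8% in the Pde8a and Pde4a stretches and 56.4% in the Adcy7 stretch, beside a median of 52.4% over all promoters. Adcy6, Pde3b and Pde7a had no entry.

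Among the cyclases, Adcy7 made up nearly all of the message. Adcy7, a cyclase of blood cells, averaged 52.3 TPM over the 10 libraries, Adcy6 3.81 TPM, Adcy3 1.82 TPM and Adcy9 0.023 TPM. The other 6 annotated cyclase genes were all under 1 TPM, and Adcy2 was at 0 in every library. Adcy7 therefore held between 83.8 and 95.7% of the summed TPM of all 10 cyclase genes. Adcy6 held between 7.25 and 10.03% of it in mutant libraries, 4.78 and 7.33% in full-length libraries and 1.33 and 1.46% in empty-vector libraries. The cyclase total in mutants, at 49.7 to 63.9 TPM, overlapped both other groups. With full-length ASXL2 it was 56.2 and 69.4 TPM, above the 51.9 and 52.7 TPM with the empty vector.

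**Figure D1:**
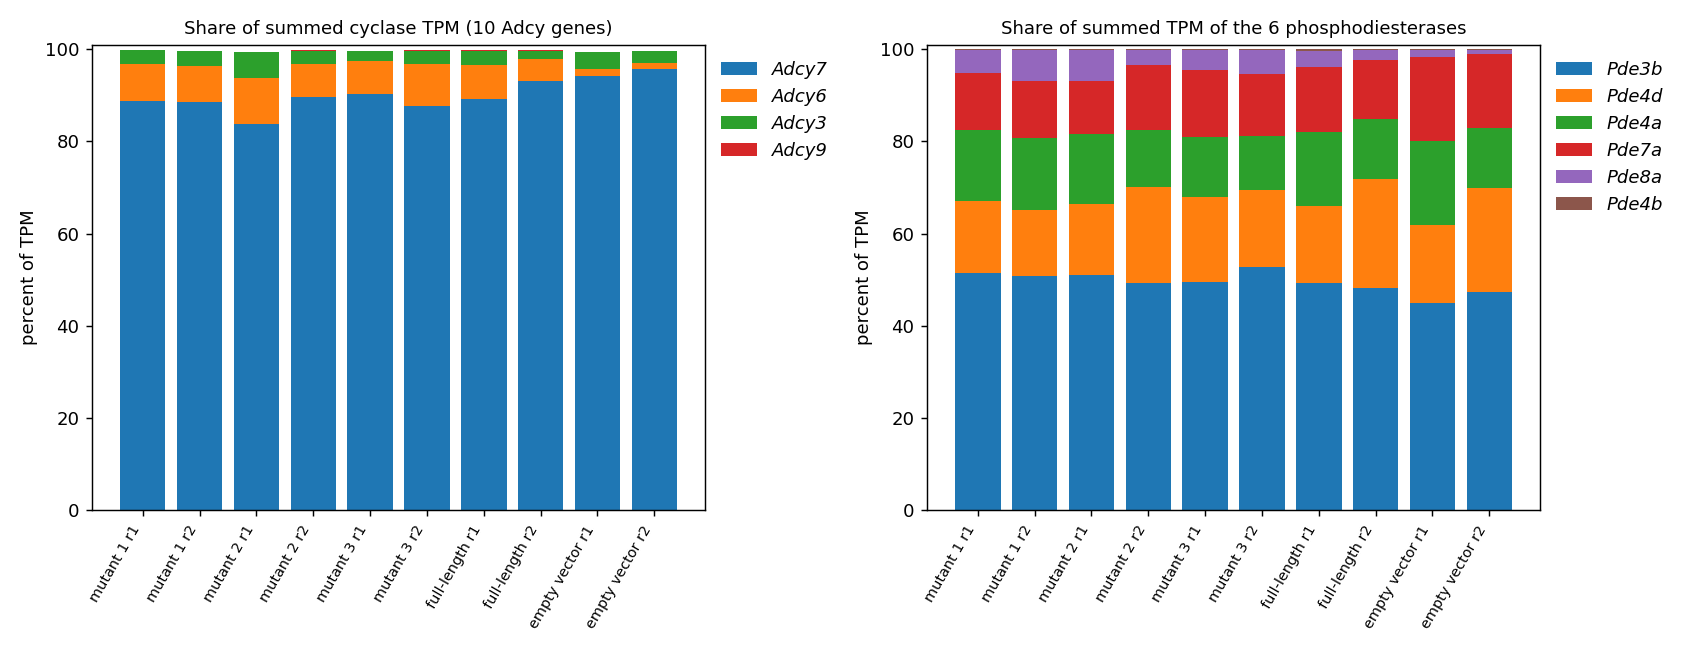
Percent of TPM in each library, mutants first, then full-length and empty vector; the left panel stacks the 4 cyclases over the summed TPM of 10 Adcy genes, and the right panel stacks the 6 phosphodiesterases over their own sum. The Adcy6 band is 7.25 to 10.03% in mutants and 1.33 to 1.46% with the empty vector, and the Pde3b band stays between 44.9 and 52.8%.

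Adcy6 (GRCm38 chr15:98589973-98610076, minus strand) encodes a cyclase that calcium and the inhibitory G proteins restrain. By the labels it had 21.7 and 20.2 CPM in mutant 1, 28.1 and 19.8 CPM in mutant 2, 19.5 and 28.1 CPM in mutant 3, 19.3 and 14.9 CPM with full-length ASXL2, and 3.24 and 3.31 CPM with the empty vector. By the mutant number of the name, number 1 had 21.7 and 19.8 CPM and number 2 had 20.2 and 19.5 CPM. Number 3 of the name had 28.1 CPM in each library. All 8 construct libraries lay above both empty-vector libraries, and the ratio of means was 6.99 for the mutants and 5.22 for full-length ASXL2. The fitted log2 fold change over the empty vector was 2.80 (SE 0.21) for the mutants and 2.38 (SE 0.23) for full-length ASXL2. Within batch 2 of the name the log2 ratios were 2.76 and 2.17 for mutants and full-length ASXL2, and within batch 1 they were 2.85 and 2.57. The gene is carried by 1 transcript in these tables, Adcy6-201 of 6017 bases, and rests on at least 172 estimated counts in a library. Gm29331, an antisense gene at this place, averaged 0.251 TPM, and since no strand setting is stated its reads cannot be told apart from those of Adcy6.

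Mutants against full-length ASXL2 is a comparison that the choice of genes did not use. In CPM all 6 mutant libraries had more Adcy6 than both full-length libraries, but the lowest mutant value, 19.5 CPM, was close to the higher full-length value, 19.3 CPM. In TPM the 2 groups overlapped, at 3.61 to 6.29 TPM in mutants and 3.32 and 4.11 TPM with full-length ASXL2. The log2 fold change was 0.42 (SE 0.18), with an unadjusted p of 0.0407 in edgeR's quasi-likelihood test and an adjusted p of 1 (Benjamini-Hochberg, over 17810 genes). Adcy6 did not pass the threshold of 0.05, and in 19 alternative settings its adjusted p lay between 0.403 and 1.

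Adcy3 (chr12:4133103-4213525, plus strand), a cyclase best known from olfactory neurons, was low throughout. It had 2.24 to 4.35 CPM in mutant libraries with a median of 3.30 CPM, 2.60 and 3.08 CPM with full-length ASXL2, and 2.03 and 1.84 CPM with the empty vector. All 8 construct libraries lay above both empty-vector libraries, by a log2 fold change of 0.79 (SE 0.28) for mutants and 0.55 (SE 0.33) for full-length ASXL2. In TPM summed over all its transcripts the log2 ratio of means was 0.26 for mutants and -0.11 for full-length ASXL2, so the direction for full-length ASXL2 turned there. Protein-coding transcripts made up 0.402 of its 1.82 TPM. They averaged 0.491 TPM in mutants, 0.327 TPM with full-length ASXL2 and 0.212 TPM with the empty vector, the same direction as in CPM. Cenpo, a centromere gene at 16.9 TPM, overlaps it on the opposite strand, and reads of the pair cannot be told apart. Between mutants and full-length ASXL2 the log2 fold change was 0.24 (SE 0.27), with an adjusted p of 1 by edgeR.

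Adcy7 (chr8:88272403-88329962, plus strand) had 228 to 269 CPM in mutant libraries with a median of 240 CPM, 234 and 289 CPM with full-length ASXL2, and 208 and 237 CPM with the empty vector. The groups overlapped, and 5 of the 8 construct libraries lay above both empty-vector libraries. Its log2 fold change was 0.12 (SE 0.10) for mutants over the empty vector, 0.23 (SE 0.12) for full-length ASXL2 over the empty vector and -0.11 (SE 0.10) for mutants over full-length ASXL2, the last with an adjusted p of 1 by edgeR. Adcy9 had between 0 and 17 estimated counts in a library and did not pass the expression filter, so no fold is given for it.

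**Figure D2:**
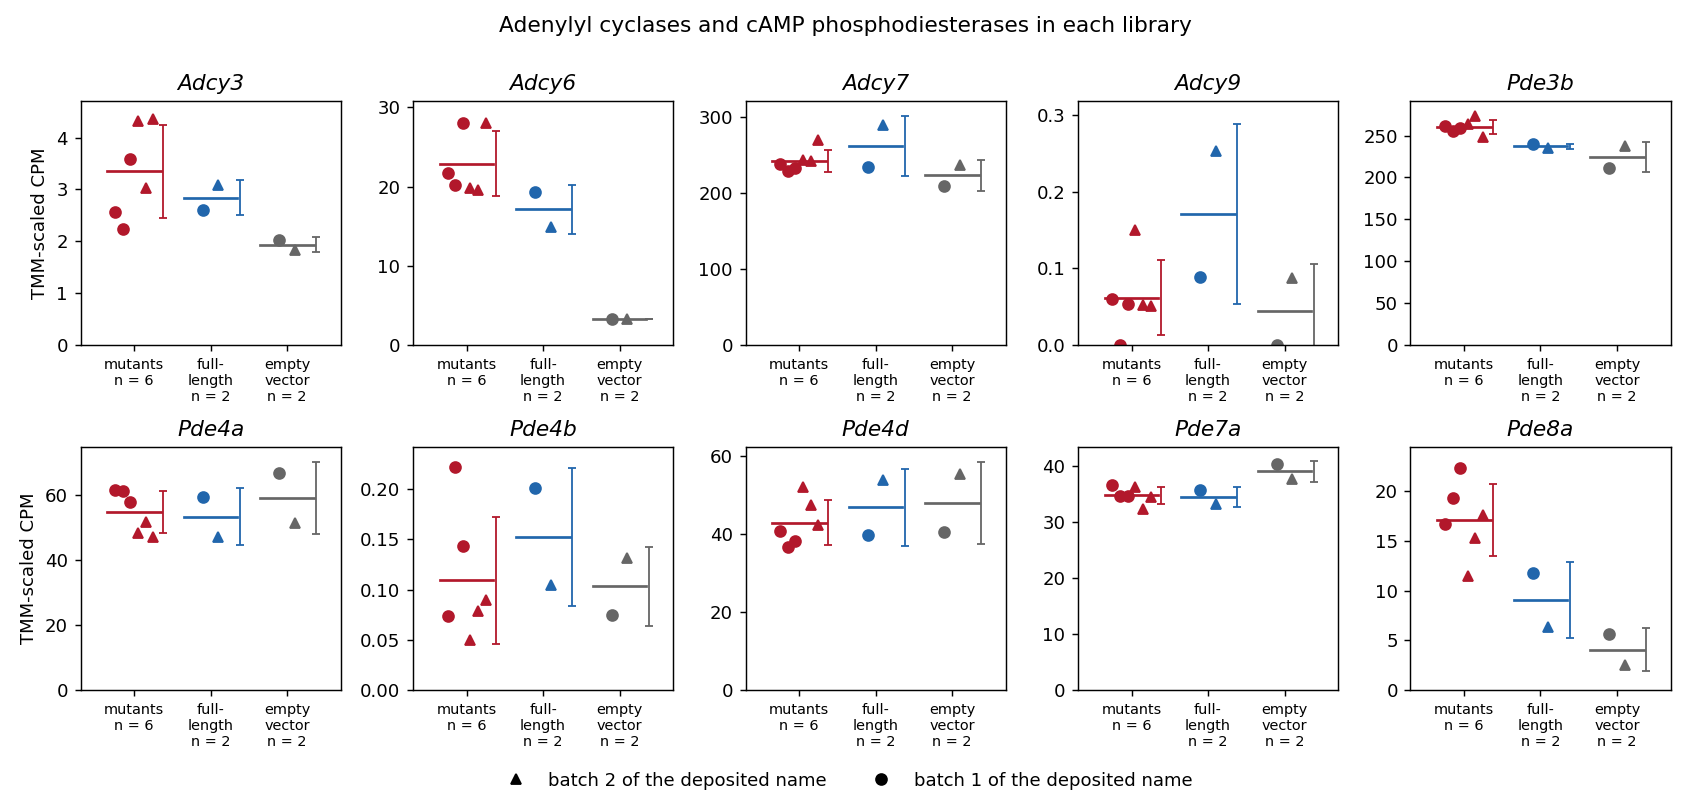
TMM-scaled CPM of the 10 genes in each library, with mutants (n = 6), full-length (n = 2) and empty vector (n = 2) from left to right in each panel; triangles are batch 2 and circles batch 1 of the deposited name, the horizontal line is the mean and the bar its SD. Adcy6 lies between 14.9 and 28.1 CPM in the construct libraries and at 3.24 and 3.31 CPM with the empty vector, and in the Pde4a and Pde4d panels the triangles and circles fall apart.

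Of the 6 phosphodiesterases, Pde3b was the most abundant per length and Pde4b the least. Pde3b averaged 60.2 TPM, Pde4d 21.9 TPM, Pde4a 17.5 TPM, Pde7a 16.9 TPM, Pde8a 4.86 TPM and Pde4b 0.190 TPM. The ranges of Pde4d, Pde4a and Pde7a over libraries overlapped, so their order is not fixed by the TPM of all transcripts. In protein-coding transcripts alone the ranges did not overlap. These were 17.9 to 27.2 TPM for Pde4d, 9.95 to 16.4 TPM for Pde4a and 5.74 to 9.86 TPM for Pde7a. Pde3b held between 49.2 and 52.8% of the summed TPM of the 6 genes in mutants, 48.2 and 49.4% with full-length ASXL2, and 44.9 and 47.4% with the empty vector. TPM of every gene shares its total with Mir6236, listed at between 38966 and 109219 TPM, which shifts TPM but not these shares. Levels of single genes are therefore compared between libraries in CPM, while the cyclase total, the sums over marker lists and the transcript levels are in TPM and carry this shift. Mir6236 overlapped between the batches of the name, at 48847 to 109219 TPM in batch 2 and 38966 to 105546 TPM in batch 1.

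Pde8a (chr7:81213596-81334533, plus strand) encodes a high-affinity cAMP phosphodiesterase that the common inhibitor IBMX does not block. By the labels it had 16.6 and 19.2 CPM in mutant 1, 22.2 and 11.5 CPM in mutant 2, 15.3 and 17.6 CPM in mutant 3, 11.7 and 6.39 CPM with full-length ASXL2, and 5.65 and 2.54 CPM with the empty vector. By the mutant number of the name, number 1 had 16.6 and 11.5 CPM and number 2 had 19.2 and 15.3 CPM. Number 3 of the name had 22.2 and 17.6 CPM. All 8 construct libraries lay above both empty-vector libraries, but the lower full-length library was close to the higher empty-vector one. The ratio of means over the empty vector was 4.17 for mutants and 2.22 for full-length ASXL2, with log2 fold changes of 2.07 (SE 0.38) and 1.15 (SE 0.41). Within batch 2 of the name the log2 ratios were 2.54 and 1.33 for mutants and full-length ASXL2, and within batch 1 they were 1.78 and 1.06.

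Among the 9 genes that passed the expression filter, Pde8a had the largest fold between mutants and full-length ASXL2. Means were 17.1 ± 3.65 CPM in mutants and 9.07 ± 3.79 CPM with the full-length form (SD over 6 and 2 libraries), and 5 of 6 mutant libraries lay above both full-length libraries. The log2 fold change was 0.91 (SE 0.34), with an unadjusted p of 0.0249 and an adjusted p of 1 by edgeR. With the replicate block of the label the adjusted p was 0.735, and with a block for the batch of the name it was 0.122, so the difference did not pass in either. None of the 9 tested genes was called under these blocks, beside 0.00561% and 0.399% of all genes. The exception to the order, mutant 2 replicate 2 at 11.5 CPM, lies in batch 2 of the name, where the full-length library had 6.39 CPM.

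Pde3b (chr7:114415281-114539251, plus strand), the cGMP-inhibited phosphodiesterase of the insulin and leptin pathways, had 248 to 274 CPM in mutants with a median of 261 CPM, 240 and 235 CPM with full-length ASXL2, and 211 and 237 CPM with the empty vector. All 6 mutant libraries lay above both full-length libraries, by a small log2 fold change of 0.13 (SE 0.07) with an unadjusted p of 0.0795 and an adjusted p of 1 by edgeR. Over the empty vector the log2 fold change was 0.22 (SE 0.07) for mutants and 0.08 (SE 0.08) for full-length ASXL2.

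Pde7a (chr3:19223108-19311322, minus strand), a cAMP-specific phosphodiesterase of lymphoid and other blood cells, was the gene that lay below the empty vector in all 8 construct libraries. It had 32.4 to 36.6 CPM in mutants with a median of 34.6 CPM, 35.7 and 33.3 CPM with full-length ASXL2, and 40.4 and 37.8 CPM with the empty vector. The log2 fold change over the empty vector was -0.17 (SE 0.07) for mutants and -0.18 (SE 0.09) for full-length ASXL2, so the ratios of means were 0.890 and 0.882. The share of all genes that lay below in all 8 construct libraries was not counted. Mutants and full-length ASXL2 differed by 0.01 (SE 0.07) on the log2 scale, with an adjusted p of 1 by edgeR.

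The Pde4 family, the targets of rolipram, was present as Pde4a and Pde4d. Pde4a (chr9:21165714-21213248, plus strand) had 47.0 to 61.6 CPM in mutants with a median of 54.9 CPM, 59.4 and 47.1 CPM with full-length ASXL2, and 66.8 and 51.2 CPM with the empty vector. Pde4d (chr13:108449948-109953461, plus strand) had 36.9 to 52.2 CPM in mutants with a median of 41.6 CPM, 40.0 and 53.9 CPM with full-length ASXL2, and 40.7 and 55.4 CPM with the empty vector. For both genes the 3 groups overlapped, and log2 fold changes in the 3 comparisons of groups lay between -0.16 and 0.04. Between mutants and full-length ASXL2 they were 0.04 (SE 0.15) for Pde4a and -0.12 (SE 0.17) for Pde4d, each with an adjusted p of 1 by edgeR. Pde4b, the isoform that inflammatory stimuli induce in monocytes, had between 3 and 16 estimated counts per library, where counting error is large. Most of these counts fell on Pde4b-209, a retained-intron form, and protein-coding transcripts averaged 0.00435 of its 0.190 TPM. The log2 fold change of Pde4b between mutants and full-length ASXL2 was -0.49 (SE 0.56).

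Counted over the genes, 9 of the 10 passed the expression filter and none passed the threshold between mutants and full-length ASXL2, where 0% of 17810 genes were called. In that comparison edgeR gave 720 genes an unadjusted p under 0.05, and DESeq2 called 73 genes. For mutants over the empty vector, Adcy6 and Pde8a were past the threshold, beside 1.75% of all genes, and for full-length ASXL2 over the empty vector Adcy6 was, beside 0.752%. Nothing is read from these 2 counts, because the genes were chosen on that difference. The share of all genes whose construct libraries all lie on the same side of both empty-vector libraries was not counted. Nothing is read from such a separation either. Of the erythroid markers, Epor was also called in both comparisons, with log2 fold changes of 0.90 (SE 0.18) for mutants and 1.45 (SE 0.21) for full-length ASXL2. The 7 erythroid markers summed to 28.7 to 58.4 TPM in mutants, 36.0 and 49.6 TPM with full-length ASXL2 and 54.6 and 59.3 TPM with the empty vector, and their part in these differences was not tested. Stem and progenitor markers, a list of 8 genes, summed to 1751 to 2075 TPM in mutants, 1413 and 1467 TPM with full-length ASXL2 and 1879 and 2161 TPM with the empty vector. The full-length libraries lay below all others in that sum, none of the 7 tested markers was called by edgeR in the 3 comparisons, and the part of these cells in the differences was not tested.

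**Figure D3:**
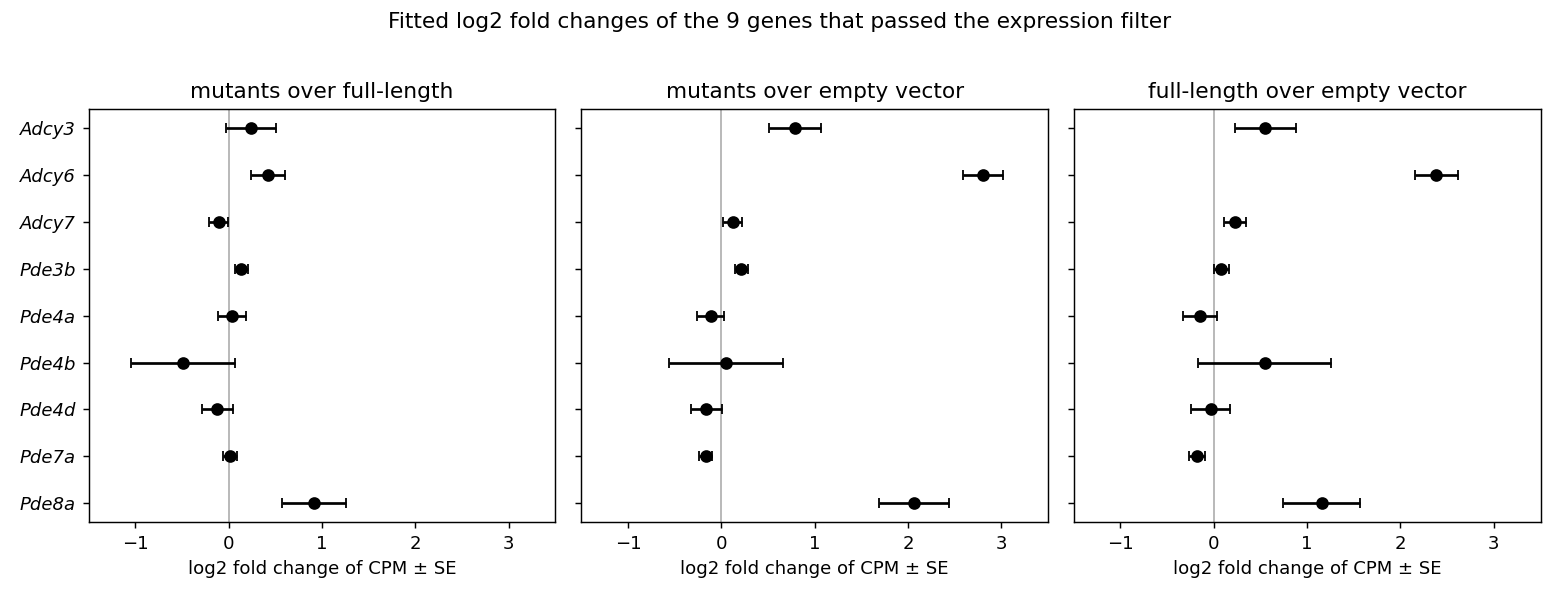
Fitted log2 fold changes with their standard errors for the 9 genes that passed the expression filter, for mutants over full-length, mutants over empty vector and full-length over empty vector. Adcy6 lies at 0.42, 2.80 and 2.38 and Pde8a at 0.91, 2.07 and 1.15, and the 7 other genes lie between -0.49 and 0.79.

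Pde4a and Pde4d, whose groups overlapped, were separated by the batch of the deposited name. With batches taken from the labels, 0 of 9 genes and 0% of all genes were called by edgeR in batch 2 against batch 1, with 1555 genes at an unadjusted p under 0.05 and 5 genes called by DESeq2. With batches taken from the deposited names, 4 of 9 were called, beside 52.4% of all genes, so a call in that comparison is common. Pde4a had 47.0 to 51.8 CPM in batch 2 and 57.9 to 66.8 CPM in batch 1, without overlap. Its log2 fold change was -0.32 (SE 0.04), with an adjusted p of 7.32e-05 by edgeR. Pde4d went the other way, with 42.5 to 55.4 CPM in batch 2 and 36.9 to 40.7 CPM in batch 1, again without overlap. Its log2 fold change was 0.35 (SE 0.06), with an adjusted p of 0.000512 by edgeR. The share of all genes that these batches separate without overlap was not counted.

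Adcy7 and Pde8a also moved with the batch of the name. Adcy7 had 237 to 289 CPM in batch 2 and 208 to 238 CPM in batch 1, overlapping narrowly, with a log2 fold change of 0.16 (SE 0.05) and an adjusted p of 0.0110 by edgeR. Pde8a had 2.54 to 17.6 CPM in batch 2 and 5.65 to 22.2 CPM in batch 1, and was lower in batch 2 within each of the 3 classes. Its log2 fold change was -0.61 (SE 0.16), with an adjusted p of 0.0116 by edgeR. Without full-length replicate 1 or full-length replicate 2 that p was 0.0561 or 0.0579, above the threshold of 0.05, so Pde8a was not called there, while Pde4a, Pde4d and Adcy7 were called with each of the 10 libraries left out in turn. Adcy6 differed by -0.11 (SE 0.14) between these batches, with an adjusted p of 0.537 by edgeR, and Adcy3, Pde3b, Pde4b and Pde7a were not called.

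Below the gene level, the transcripts of Pde4d did not shift together. Pde4d-213, a protein-coding form of 2123 bases, had 2.48 to 5.30 TPM in batch 2 of the name and 0.771 to 1.78 TPM in batch 1. Pde4d-201 had 5.72 to 8.89 TPM in batch 2 and 3.44 to 5.73 TPM in batch 1. Pde4d-218 ran the other way, with 4.62 to 6.21 TPM in batch 2 and 6.66 to 9.23 TPM in batch 1, and Pde4d-207 overlapped at 5.65 to 7.11 TPM and 5.49 to 6.28 TPM. Both main transcripts of Pde4a were lower in batch 2: Pde4a-202 had 8.44 to 9.93 TPM against 10.9 to 13.6 TPM in batch 1, and Pde4a-204, a retained-intron form, had 3.42 to 4.10 TPM against 5.85 to 6.86 TPM. Kallisto divides reads among forms that share exons, so these levels are estimates that depend on that division, and they were not tested.

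**Figure D4:**
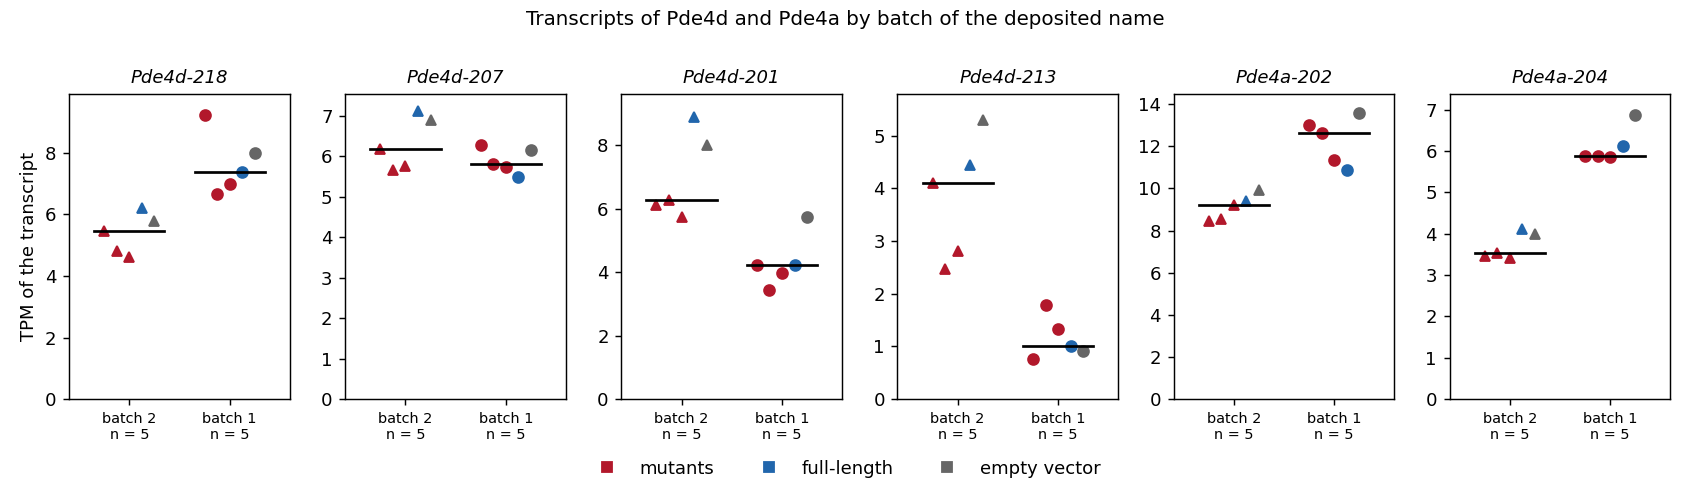
TPM of 4 Pde4d and 2 Pde4a transcripts in batch 2 (left, n = 5) and batch 1 (right, n = 5) of the deposited name; each point is a library, coloured by construct, and the line is the median. Pde4d-213 lies at 2.48 to 5.30 TPM in batch 2 and 0.771 to 1.78 TPM in batch 1, while Pde4d-218 and both Pde4a transcripts are lower in batch 2.

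Several other quantities moved with the batch of the name, and their part in these differences was not tested. Asxl2 itself had 790 to 992 CPM in the batch 2 construct libraries and 1132 to 1892 CPM in the batch 1 ones. Mast cell and basophil markers summed to 54225 to 66836 TPM in batch 2 and 53894 to 59417 TPM in batch 1, with 7 of 13 tested markers higher and 1 lower by edgeR, beside 26.6% higher and 25.9% lower of all genes. Megakaryocyte markers summed to 935 to 1132 TPM in batch 2 and 1286 to 1641 TPM in batch 1, with 4 of 6 tested markers lower, beside the same 25.9%. Of the 7 megakaryocyte markers listed, 1 averaged 10 TPM or more and 4 averaged under 1 TPM, so that sum rests mostly on 1 gene. Genes that CREB is known to switch on, listed as 18 genes of which 17 were tested, summed to 223 to 352 TPM in batch 2 and 140 to 170 TPM in batch 1. Of the 17, 8 were higher and 3 lower, beside 26.6% and 25.9% of all genes, with a median log2 fold change of 0.49 beside -0.04 for all genes. Egr1 and Fos, immediate-early genes, had log2 fold changes of 3.83 (SE 0.86, adjusted p 0.0100) and 3.01 (SE 0.63, adjusted p 0.00650) by edgeR.

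The rest of the cAMP system was described from 12 lists, which hold 122 genes, 91 of them tested. The stimulatory subunit Gnas averaged 580 TPM and the inhibitory subunit Gnai2 430 TPM. Among receptors, the inhibitory Adora3, P2ry14 and Ptger3 averaged 159, 134 and 121 TPM, and the stimulatory Adora2b and Ptger4 30.6 and 15.9 TPM. The protein kinase A subunits Prkacb and Prkar1a averaged 268 and 162 TPM. Pde1c, a phosphodiesterase that calmodulin activates, averaged 54.6 TPM, close to Pde3b, and Pde7b, a paralogue of Pde7a, 0.738 TPM.

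None of these 91 genes was called by edgeR between mutants and full-length ASXL2, for mutants over the empty vector or for full-length ASXL2 over the empty vector. Of the 91, edgeR gave 7, 15 and 6 an unadjusted p under 0.05 in these comparisons, and DESeq2 called 0, 5 and 0, beside 720, 2021 and 1477 of all genes by edgeR and 73, 875 and 536 by DESeq2. The 5 were Pkia, Ptger4, Calcrl, Gnaz and Creb5. Over the 91 genes the median log2 fold changes were -0.02, 0.01 and 0.00, beside 0.01, 0.00 and -0.01 for all 17810 genes. With the replicate block of the label, 1 of the 91 was higher and 1 lower in mutants than with the empty vector, beside 1.62% and 0.264% of all genes (1.88% in either direction). For full-length ASXL2 over the empty vector none of the 91 was called under that block, beside 0.724% of all genes. Pkia, an inhibitor of protein kinase A, was the higher one, at 3.43 to 6.89 CPM in mutants and 1.26 and 2.05 CPM with the empty vector. Under that block its log2 fold change was 1.59 (SE 0.30), with an adjusted p of 0.0347 by edgeR, against 0.0633 without the block. Ptger4, a stimulatory prostaglandin E2 receptor, was the lower one, at 29.4 to 39.4 CPM in mutants and 49.0 and 49.2 CPM with the empty vector. Under the block the log2 fold change of Ptger4 was -0.46 (SE 0.10), with an adjusted p of 0.0491 by edgeR, against 0.0570 without the block. The genes named here were chosen after their values were seen.

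With a block for the batch of the name, 8 of the 91 genes rose and 8 fell in mutants relative to the empty vector, beside 6.82% and 3.99% of all genes. Pkia, Prkacb, a catalytic subunit of protein kinase A, and Pde7b were among those that rose, with log2 fold changes of 1.56, 0.26 and 1.09. Ptger4, the Gs-coupled receptor component Calcrl and Prkar2b, a regulatory subunit of protein kinase A, were among those that fell, with -0.46, -1.11 and -0.21. For full-length ASXL2 over the empty vector, Akap2, an anchoring protein, and Prkar2a, a regulatory subunit, rose by 0.36 and 0.65 on the log2 scale, and no gene of the lists fell, beside 3.85% higher and 1.22% lower of all genes (5.07% in either direction). For mutants the share of all genes in either direction was 10.8%. Between mutants and full-length ASXL2 none of the 91 was called under this block, and Pkia had an adjusted p of 0.0665 by edgeR. The genes in these counts that are named here were chosen after their values were seen.

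The genes most like Adcy6 over the 10 libraries were taken from 9642 tested genes with a mean of at least 5 CPM, by the Pearson correlation of log2 CPM. They were Slc41a1, a magnesium transporter, at 0.990, Tpd52 at 0.990, Pik3cb, a catalytic subunit of PI3 kinase, at 0.981, Lgalsl at 0.973 and Cbr3, a carbonyl reductase, at 0.971. Pik3cb had 10.4 to 14.8 CPM in mutants, 8.83 and 11.7 CPM with full-length ASXL2, and 2.48 and 2.54 CPM with the empty vector. Tpd52 had 25.4 to 30.9 CPM in mutants, 22.8 and 23.9 CPM with full-length ASXL2, and 7.53 and 9.32 CPM with the empty vector. The points share the 2 empty-vector libraries, which stand apart from the other 8, so these values mostly describe that gap. By the same measure Pde8a lay at 0.889, Pde3b at 0.738, Adcy3 at 0.733 and Pde7a at -0.735, and the other genes of the 10 that were tested lay between -0.341 and 0.418.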

How the data were processed

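Kallisto, DESeq2 and the build mm10 are named in the submitters' processing notes, without versions. The authors deposited 1 table per library with an estimated count and a TPM value for each of 115088 transcripts, per the file headers. For strand setting, transcript index and filters, nothing is given in the sources used here. Of the transcripts, 114200 (99.2%) matched the GENCODE M21 annotation of GRCm38 and were summed to 47311 genes, with 99.3 to 99.6% of each library. Because kallisto divides reads that fit several transcripts, paralogues and overlapping genes are uncertain.

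Summed estimated counts were rounded and tested in R 4.3.3 with edgeR 4.0.16 (robust quasi-likelihood test, TMM scaling), the default expression filter (10 counts, smallest class of 2) and all 10 libraries in 1 fit of 3 classes. That kept 17810 genes, and a gene was called at a Benjamini-Hochberg adjusted p under 0.05. The batch comparison had class as a covariate. In a library, 15624 to 17240 genes reached 10 counts; below that, counting error is large. Log2 CPM for likeness used a prior count of 2. Alternatives were the replicate block, DESeq2 1.42.0 and its size factors, other filters, limma 3.58.1 on log2(TPM + 1) or log2(TPM + 0.1), the libraries compared alone and each library left out. The fits were tested on simulated counts. Other work used matplotlib 3.10.9, numpy 2.4.6, pandas 2.3.3 and Python 3.11.15.

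The 10 genes, the pathway lists and the markers were chosen with earlier results of these data known. The text names all 10 genes, Asxl2, up to 4 members of a list with the smallest p among those called, and the 5 genes most like Adcy6 without Asxl2 and predicted symbols. Genes named for their level, such as Gnas, Adora3 and Pde1c, fall outside this rule, and their choice was not set in advance. The pairing comes from the labels, where the replicate number is a batch. Same-numbered libraries deviated together from their group means for mutant 2 with full-length ASXL2 (r = 0.578), full-length ASXL2 with the empty vector (0.525) and mutant 2 with the empty vector (0.491), while the other 7 pairs of groups gave -0.145 to 0.0169. Each of these 7 pairs includes mutant 1 or mutant 3, groups whose libraries fall in the same batch of the name.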

Additional observations from a re-analysis of the deposited data

Results flagged for a closer look

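Adcy7 in mutant 3 replicate 2, at 269 CPM, stood apart from the other 5 mutant libraries, whose highest value was 243 CPM. The gap was 0.634 of the range of the 6 mutant libraries, beside a critical value of 0.625. Of 11 such groups checked 1 was marked, and chance marks about 1 in 20 groups.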

How the results depend on the processing

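No value reversed its direction while called. Between mutants and full-length ASXL2, where 0 genes were called, the replicate block of the label gave 1 gene, the replicate block by the batch of the deposited name 71, DESeq2 73, and leaving out each library 0 to 1. None of the 9 tested cyclases and phosphodiesterases was called there in any of these settings. For full-length ASXL2 over the empty vector, where 134 genes were called, the replicate block by the batch of the name gave 903, DESeq2 536, limma 11 on log2(TPM + 1) and 19 on log2(TPM + 0.1), and the libraries compared alone 0, with 921 at an unadjusted p under 0.05. Leaving out each library gave 0 to 86, with 9 without full-length replicate 2, and 4 or 0 without empty-vector replicate 1 or 2. For mutants over the empty vector, where 311 genes were called, the same settings gave 1925, 875, 49 and 69, and leaving out each library gave 17 to 271, with 28 without empty-vector replicate 1 and 17 without empty-vector replicate 2. The block of the label gave 129 and 335 in these 2 comparisons. For batch 2 over batch 1, where 0 genes were called, the batch of the name gave 9338, DESeq2 5, and leaving out each library 0 to 2245, the highest without mutant 1 replicate 2, one of the 2 libraries whose name gives another batch. Without mutant 3 replicate 1, the other of these 2 libraries, 0 genes were called, with 5209 at an unadjusted p under 0.05 in edgeR. The cause of these shifts was not tested. Between mutants and full-length ASXL2 the blocks changed no call of the 10 genes. With 2 libraries of full-length ASXL2 and of the empty vector, 1 library can decide a call.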
